A study of Mus musculus with 6 samples.

Results

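Cytosolic ribosomal proteins are the proteins that, with ribosomal RNA, build the ribosome of the cytoplasm. They were taken here as the genes whose name starts with Rpl or Rps and a number, or is Rplp0, Rplp1, Rplp2 or Rpsa, without names containing -ps and without the Rps6k kinases. The rule gave 92 of the 35275 genes in the deposited table. Of these, 77 encode the core proteins (46 of the large subunit and 31 of the small subunit), 14 are minor paralogs or retrotransposed copies, and 1, Rps19bp1, encodes a regulator that is not part of the ribosome. All 77 core genes, 9 of the 14 minor paralogs and Rps19bp1 passed the filter on low values.

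RNA sequencing was made from epididymal adipose tissue, a visceral fat depot of the male, from C57BL/6 males. The 3 TfrcAKO samples carry the knockout of Tfrc, the receptor that takes up transferrin-bound iron, and the 3 Tfrcfl/fl samples, the controls, carry the floxed gene. AKO is known as adipocyte-specific deletion, but the labels do not spell it out and do not name the Cre driver. All mice ate a diet with 60% fat for 10 weeks from 2 months of age and were sampled at 4.5 months. Whether the samples of a group are separate animals is not stated in the labels. The p-values therefore rest on the spread among these libraries, which may be technical.

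A ribosome holds a single copy of nearly every one of these proteins, with the stalk proteins Rplp1 and Rplp2 as the known exception, so cells make the core proteins in matched amounts. Their mRNAs are among the most abundant in growing cells, and they start with a run of pyrimidines, the 5′ terminal oligopyrimidine (TOP) motif, through which the kinase mTORC1 controls their translation. Proliferating and secretory cells are known for high levels, and fat tissue holds large adipocytes beside macrophages, endothelial cells and progenitors.

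The bases around the annotated start are shown for 4 core genes that hold a searched pyrimidine motif there and 4 that do not. They are shown because a pyrimidine run at the start is the feature the family is best known for. The searched motifs are exact and narrower than the TOP motif. Rplp2 holds none of them in its printed bases, yet the pyrimidine run tcttcctttc spans its annotated start. Each line gives 30 bases before and 30 after the start in RefSeq (GRCm38.p6), 5′ to 3′ on the strand of the gene, and capitals mark the motif CTTTCC, the motif TCTTTC or the motif CTTTTC, which may overlap one another. Rpl12 lies at chr2:32961682-32961741 (plus strand), Rpl35 at chr2:39005102-39005161 (minus), Rps10 at chr17:27635215-27635274 (minus) and Rpl38 at chr11:114668550-114668609 (plus). Rps16 lies at chr7:28350659-28350718 (plus), Rpl23 at chr11:97782410-97782469 (minus), Rplp2 at chr7:141447621-141447680 (plus) and Rpl41 at chr10:128549139-128549198 (minus).
Rpl12: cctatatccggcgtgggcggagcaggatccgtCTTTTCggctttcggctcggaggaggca
Rpl35: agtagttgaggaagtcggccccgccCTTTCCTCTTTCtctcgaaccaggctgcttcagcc
Rps10: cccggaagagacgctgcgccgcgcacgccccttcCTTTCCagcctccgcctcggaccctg
Rpl38: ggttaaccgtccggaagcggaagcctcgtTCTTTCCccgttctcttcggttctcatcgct
Rps16: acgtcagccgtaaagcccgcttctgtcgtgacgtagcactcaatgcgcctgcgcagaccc
Rpl23: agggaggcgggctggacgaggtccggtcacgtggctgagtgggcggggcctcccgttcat
Rplp2: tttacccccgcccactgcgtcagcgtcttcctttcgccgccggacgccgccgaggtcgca
Rpl41: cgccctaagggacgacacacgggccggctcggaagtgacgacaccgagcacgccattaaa

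A RefSeq promoter was found for 57 of the 77 core genes. Within 50 bases of the start and on the strand of the gene, 28 of the 57 (49.1%) held at least 1 of the 3 motifs, against 10.4% of all 27025 genes with a promoter. The letters CCGGAAG, on both strands from 250 bases before to 50 after the start, were present in 40.4% of the core genes and 9.1% of all genes. For TATAAA the direction depended on the window and strand. From 250 bases before to 50 after the start it was present in 8.8% of the core genes and 14.2% of all genes on both strands, and in 8.8% and 8.9% on the strand of the gene. Within 50 bases of the start it was present in 7.0% of the core genes and 5.2% of all genes on both strands, and in 7.0% and 3.7% on the strand of the gene. These motifs were chosen with the sequences in view, and a match is a description, not a binding site.

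Depth was even, with 25252839 to 30650624 reads assigned to genes per sample. Tfrc itself was at 7.10, 8.27 and 9.50 FPKM (fragments per kilobase of gene and per 1000000 reads) in the TfrcAKO samples and at 11.1, 13.2 and 11.9 FPKM in the Tfrcfl/fl samples. The groups did not overlap, and Tfrc fell by 0.52 on the log2 scale (adjusted p = 0.0147, limma). Without Tfrcfl/fl replicate 2 or 3 its adjusted p was 0.0596 or 0.0527. Cell type markers moved widely between the groups, where 21.6% of all 14383 genes tested were called lower and 21.9% higher. Of 21 mature adipocyte markers 20 were called higher, with a summed level of 22850 to 31550 FPKM in TfrcAKO samples and 9612 to 13390 FPKM in Tfrcfl/fl samples. Of 21 macrophage markers 17 were called lower, with a summed level of 1731 to 4136 FPKM in TfrcAKO samples and 7851 to 9280 FPKM in Tfrcfl/fl samples. All 10 markers of proliferating cells were called lower, and none of 8 epididymis markers passed the filter.

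The core ribosomal protein mRNAs were lower in the TfrcAKO samples as a body, and the 46 large subunit and 31 small subunit genes moved by similar amounts. The 77 core genes together were at 28050, 26930 and 20690 FPKM in the TfrcAKO samples and at 32080, 33310 and 30860 FPKM in the Tfrcfl/fl samples. No TfrcAKO sample reached the lowest Tfrcfl/fl sample, and TfrcAKO replicate 3 lay below the other TfrcAKO samples. The TfrcAKO mean was 78.6% of the control mean. As a share of the reads assigned to genes, the core genes took 2.31% ± 0.348 in TfrcAKO samples and 2.94% ± 0.104 in Tfrcfl/fl samples (SD, n = 3 each).

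**Figure D1:**
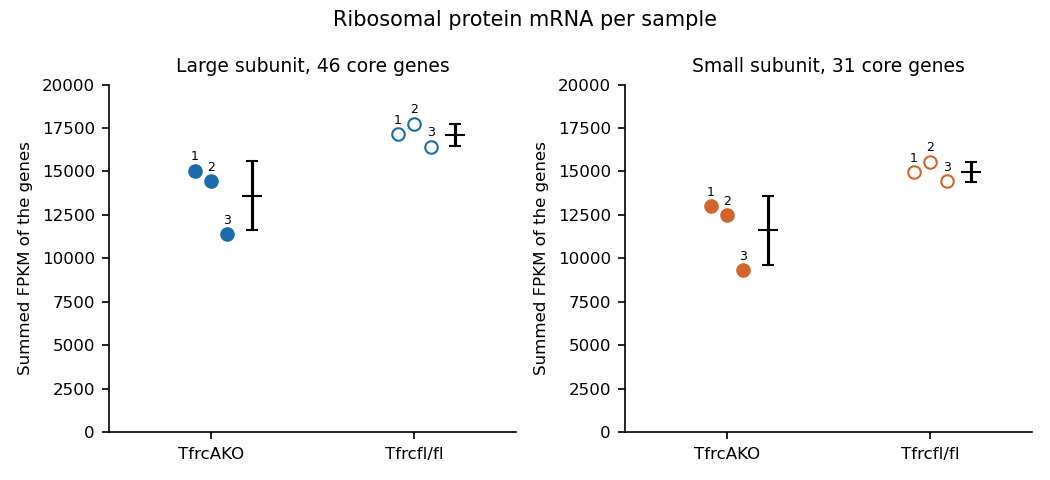
Summed FPKM of the 46 large subunit genes (left) and the 31 small subunit genes (right) in each sample, numbered by replicate, with TfrcAKO filled and Tfrcfl/fl open, and the mean ± SD beside the points. The highest TfrcAKO sample, at 15040 FPKM for the large and 13010 FPKM for the small subunit, lies under the lowest Tfrcfl/fl sample, at 16420 and 14440 FPKM.

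In single genes, 19 of the 77 core genes (24.7%) fell at an adjusted p under 0.05 in limma and none rose. Over all 14383 genes tested, 21.6% were called lower and 21.9% higher, so the share of core genes called lower was near that of all genes. What set the values of the core genes apart in description was their direction. The log2 fold change was below 0 in 75 of 77, with a median of -0.37, while the median over all genes tested was -0.03. In 68 of 77 the highest TfrcAKO sample lay below the lowest Tfrcfl/fl sample, which held for 31.0% of all genes tested. Members of the list vary together from sample to sample, so these counts are not independent observations. Among the 553 genes outside the family whose mean reached 100 FPKM, 32.0% were called lower, 35.6% were called higher and the median was 0.04. Of these 553 genes, 221 were lower and 242 higher in TfrcAKO samples without overlap.

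The number of single calls rested on single libraries. Without TfrcAKO replicate 3 it was 49, where 20.1% of all genes were called lower and 21.3% higher. Without TfrcAKO replicate 1 it was 31, where 21.3% were called lower and 19.8% higher. Without TfrcAKO replicate 2 it was 6, where 19.2% were called lower and 18.9% higher. Without Tfrcfl/fl replicate 1 it was 1, where 15.0% were called lower and 17.5% higher. Without Tfrcfl/fl replicate 2 it was 0, where 9.21% of all genes were called lower and 14.2% higher. Without Tfrcfl/fl replicate 3 it was 0 too, where 10.8% were called lower and 13.2% higher. The median log2 fold change of the core genes was between -0.45 and -0.23 in these 6 fits, nearest to 0 without TfrcAKO replicate 3. Scaling by median of ratios gave 44 calls, where 23.0% of all genes were called lower and 21.6% higher. Applied to the recovered reads, limma-voom gave 29, where 22.0% were called lower and 22.0% higher. With no filter on low values 25206 genes were tested and 3 core genes were called lower, where 10.0% of all genes were called lower and 11.2% higher.

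The values of both subunits were close, and their difference was not tested. In the large subunit 11 of 46 genes fell (23.9%), the median log2 fold change was -0.34 and the summed level was 79.6% of the control. In the small subunit 8 of 31 genes fell (25.8%), the median was -0.39 and the summed level was 77.5% of the control. The ratio of large to small subunit FPKM was 1.16, 1.16 and 1.22 in TfrcAKO samples and 1.15, 1.14 and 1.14 in Tfrcfl/fl samples. TfrcAKO replicate 3 was the highest of the 6.

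TfrcAKO replicate 3 stood apart across the family. It was the lowest of the TfrcAKO samples in 76 of 77 core genes, at a median of 0.761 of the mean of replicates 1 and 2 (range 0.604 to 1.03). Among the controls, Tfrcfl/fl replicate 2 was the highest in 65 core genes and Tfrcfl/fl replicate 3 the lowest in 64. The same TfrcAKO sample had the lowest macrophage and highest adipocyte marker levels, and mitochondrially encoded genes took 4.09% of its reads. In TfrcAKO replicates 1 and 2 that share was 2.44% and 2.61%, and in the Tfrcfl/fl samples it was 1.73% to 1.88%. The part of cell composition in the ribosomal protein levels was not tested. In bulk tissue, fewer cells of a type and less RNA per cell cannot be told apart.

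**Figure D2:**
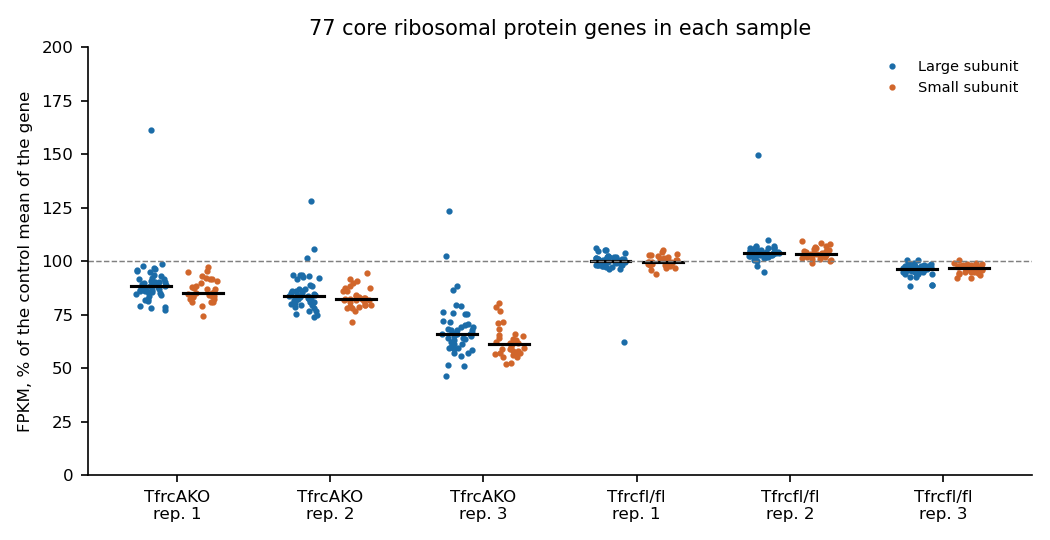
FPKM of each of the 77 core genes in each sample as a percent of the mean of that gene in the Tfrcfl/fl samples, with large subunit genes in blue, small subunit genes in orange and the median as a black bar. Most genes lie below 100% in all 3 TfrcAKO samples and lowest in replicate 3. The high points that stand away from the others belong to Rpl24, whose level is under 1 FPKM.

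The order of the core genes by level changed little, with a Spearman rho of at least 0.968 between any 2 libraries (n = 77 genes that share depth and length in each library). The most abundant was Rplp1, a protein of the stalk that recruits elongation factors, at 1329, 1292 and 982 FPKM in TfrcAKO samples and 1515, 1614 and 1502 FPKM in Tfrcfl/fl samples. Its groups did not overlap, but its change of -0.37 was not called (adjusted p = 0.0914, limma). Its partner in the stalk, Rplp2, differed by -0.12 and Rplp0, which anchors both, by -0.19, neither of them called.

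The largest fall in the large subunit was in Rpl31, a protein near the exit of the peptide tunnel. It was at 242.8, 232.8 and 143.6 FPKM in TfrcAKO samples and at 302.7, 329.9 and 299.9 FPKM in Tfrcfl/fl samples. All TfrcAKO samples were below all controls, and the log2 fold change was -0.63 (SE 0.21, adjusted p = 0.0466, limma). Rpl12, at the base of the stalk, was at 258.4, 247.3 and 170.1 FPKM in TfrcAKO samples and at 321.2, 350.6 and 330.8 FPKM in Tfrcfl/fl samples. It fell by 0.59 (SE 0.17, adjusted p = 0.0301). Rpl17, another protein near the tunnel exit, fell by 0.56 and Rpl10a by 0.51. Along the transcripts of Rpl17, 42.4% of windows of 100 bases occurred in another annotated gene. The exons of Rpl31 and Rpl12 overlap the protein-coding genes Tbc1d8 and Lrsam1 on the opposite strand, and the strand setting of the counting is not given in the sources used here.

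Of the small subunit, Rps27a fell most. Rps27a encodes a ribosomal protein fused to ubiquitin. It was at 299.3, 288.1 and 210.0 FPKM in TfrcAKO samples and at 389.3, 419.2 and 396.6 FPKM in Tfrcfl/fl samples. The groups did not overlap, and the log2 fold change was -0.61 (SE 0.15, adjusted p = 0.0185, limma), although its exons overlap Clhc1 on the opposite strand. Rps15a was at 38.6, 37.3 and 27.2 FPKM in TfrcAKO samples and 49.0, 49.1 and 45.2 FPKM in Tfrcfl/fl samples, and fell by 0.48 (adjusted p = 0.0296). Rps14, of the platform of the small subunit, had a larger change of -0.54 but was not called (adjusted p = 0.0513). Its TfrcAKO samples were at 612.2, 581.4 and 394.2 FPKM, and its Tfrcfl/fl samples at 727.2, 807.1 and 737.9 FPKM.

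**Figure D3:**
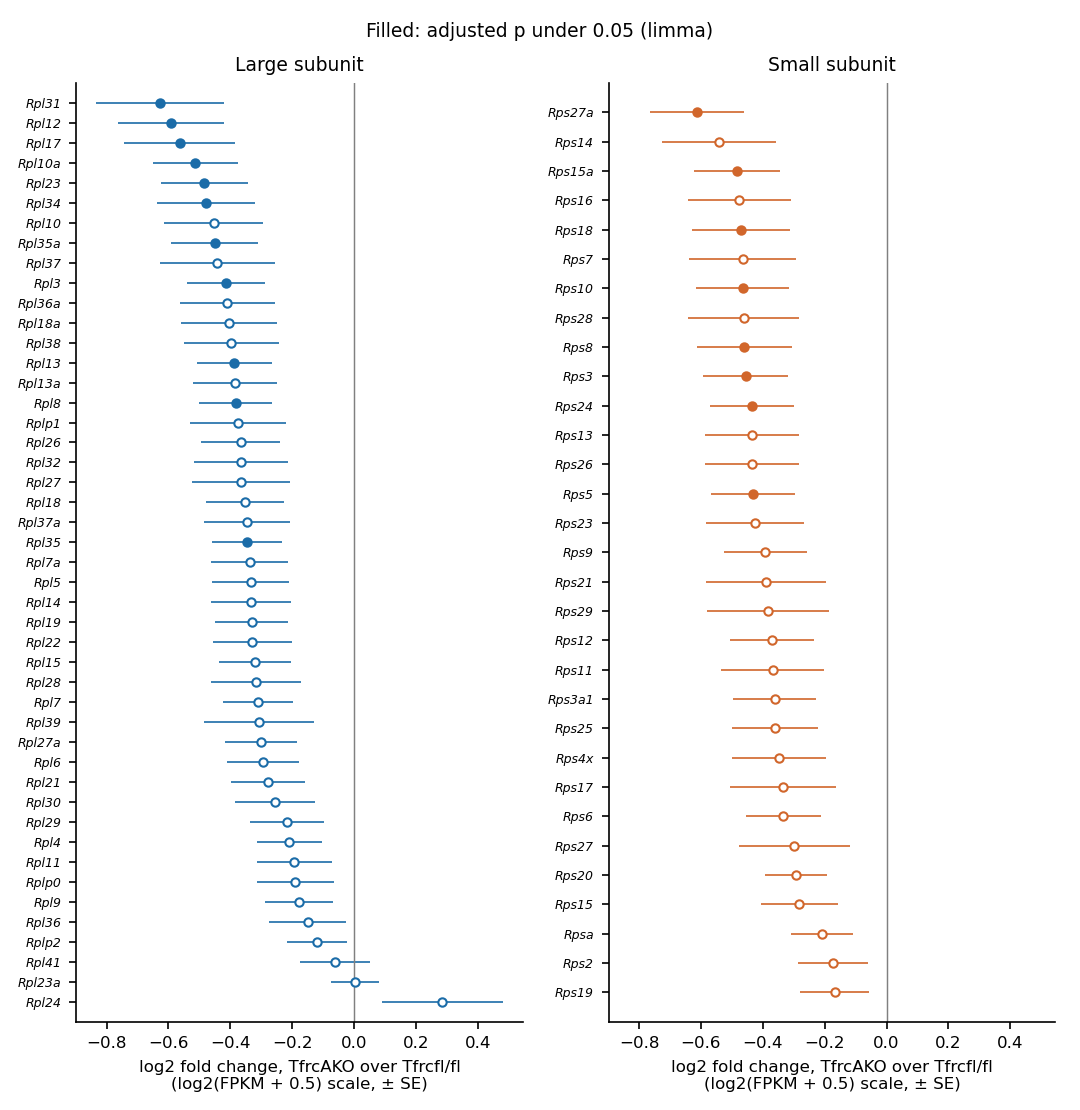
Log2 fold change of TfrcAKO over Tfrcfl/fl (± SE from limma, on the log2(FPKM + 0.5) scale) for the 46 large subunit genes (left) and the 31 small subunit genes (right), sorted, with filled points at an adjusted p under 0.05. The values run from -0.63 for Rpl31 to 0.28 for Rpl24, and 75 of 77 lie left of 0.

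Several core genes differed by less than most. Rpl41, which encodes a very short peptide, was at 671.4, 695.6 and 607.8 FPKM in TfrcAKO samples and at 703.4, 712.3 and 643.6 FPKM in Tfrcfl/fl samples. Its groups overlapped, with a log2 fold change of -0.06 (SE 0.11, adjusted p = 0.683, limma). In the small subunit, Rps19, known for its mutation in Diamond-Blackfan anaemia, differed by -0.17, Rps2 by -0.17 and Rpsa by -0.21, none of them called. The groups overlapped for Rps19, while for Rps2 and Rpsa all TfrcAKO samples were below all controls. Rpl5 and Rpl11 bind Mdm2 with the 5S RNA when ribosome assembly fails. Rpl5 differed by -0.33, near the median of the core genes, and Rpl11 by -0.19. Neither was called (adjusted p = 0.0667 and 0.233, limma), although the TfrcAKO samples of both were below all controls.

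The only core genes not below 0 were Rpl23a and Rpl24, both far below the level of their subunit. Rpl24 was at 0.916, 0.727 and 0.702 FPKM in TfrcAKO samples and at 0.354, 0.851 and 0.501 FPKM in Tfrcfl/fl samples, with a log2 fold change of 0.28 that was not called (adjusted p = 0.272, limma). Rpl23a was at 14.5, 16.4 and 15.9 FPKM in TfrcAKO samples and at 16.3, 14.8 and 15.6 FPKM in Tfrcfl/fl samples. Of the windows of 100 bases along their transcripts, 73.9% in Rpl23a (8 other genes) and 49.0% in Rpl24 (5 other genes) occurred in another annotated gene. The median over the core genes was 16.3%. High shares were not particular to these 2 genes. Rpl35, at 70.2%, was called lower, and Rpl36, at 55.3%, had a mean of 545 FPKM over the 6 samples. How reads with several matches were counted is not given in the sources used here. These levels are therefore uncertain.

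The log2 fold change showed weak rank correlations with the gene features measured. Across the 77 core genes, Spearman's rho of the log2 fold change was 0.116 with the share of windows found in another gene, 0.031 with gene length and -0.028 with mean FPKM. The 68 core genes with under 40% of such windows were all below 0, with a median of -0.37. Among core genes with a promoter, the 28 holding a searched pyrimidine motif within 50 bases of the start had a median of -0.37. The 29 with no searched motif there had a median of -0.36. Of the genes whose start is printed, those with a motif had log2 fold changes of -0.59 (Rpl12), -0.46 (Rps10), -0.40 (Rpl38) and -0.35 (Rpl35). Those without one in the printed bases had -0.48 (Rps16), -0.48 (Rpl23), -0.12 (Rplp2) and -0.06 (Rpl41). In the large subunit Rpl12 is among the 4 lowest values and Rplp2 and Rpl41 among the 4 highest. The printed genes therefore do not represent their sets. All of these values are descriptions across genes of the same libraries. Genes without a searched motif can still hold a pyrimidine run at the start, as Rplp2 does. Whether the log2 fold change goes with the TOP motif itself was therefore not tested.

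The 14 minor paralogs together were at 400.0, 394.3 and 323.8 FPKM in TfrcAKO samples and at 411.9, 418.6 and 401.7 FPKM in Tfrcfl/fl samples, without overlap, and the TfrcAKO mean was 90.7% of the control mean. Of the 9 tested, 7 had a log2 fold change below 0, with a median of -0.24. Among these 9, 2 were called lower (22.2%) and 1 higher (11.1%), against 21.6% and 21.9% of all genes tested. Rps4l, a copy of the small subunit gene Rps4x, rose, with 24.3, 23.7 and 26.5 FPKM in TfrcAKO samples and 17.7, 14.4 and 18.2 FPKM in Tfrcfl/fl samples. All TfrcAKO samples were above all controls, and the log2 fold change was 0.56 (SE 0.11, adjusted p = 0.00822, limma). Only 1.7% of its windows occurred in another gene. Its partner Rps4x differed by -0.35 (adjusted p = 0.102).

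Rps27l, a paralog of Rps27 known as a p53 target, was at 163.9, 159.2 and 129.6 FPKM in TfrcAKO samples and at 145.9, 150.7 and 143.7 FPKM in Tfrcfl/fl samples. The groups overlapped (log2 fold change 0.03, adjusted p = 0.829, limma), and none of its windows occurred in another gene. Rpl22l1, the paralog of Rpl22, was at 107.1, 108.2 and 85.4 FPKM in TfrcAKO samples and at 137.1, 134.9 and 125.8 FPKM in Tfrcfl/fl samples, and fell by 0.41 (adjusted p = 0.0267), a call lost without any 1 of the Tfrcfl/fl samples. Rpl37rt, a retrotransposed copy of Rpl37, fell by 0.46 (adjusted p = 0.0401) at levels of 3.54 to 4.45 FPKM in TfrcAKO samples and 4.63 to 6.53 FPKM in Tfrcfl/fl samples, a call lost under limma-voom (adjusted p = 0.0837) and without TfrcAKO replicate 2 or 3 or Tfrcfl/fl replicate 1 or 2. Rpl36al, Rpl7l1, Rps27rt, Rps3a2 and Rps3a3 were not called, with log2 fold changes of -0.22, -0.24, -0.17, -0.51 and -0.45.

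The 5 paralogs that were too low to be tested were Rpl3l, known from striated muscle, Rpl10l and Rpl39l, known from the testis, Rps12l1 and Rps12l2. The highest value among them was 1.05 FPKM, for Rpl39l in a Tfrcfl/fl sample, and Rpl10l was above 0 in a single TfrcAKO sample. Rps19bp1 differed by -0.07 and was not called.

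Set against their partners, Rps4l, Rps27l and Rpl36al took a larger share in TfrcAKO samples without overlap. Rps4l was at 5.37%, 5.81% and 8.43% of Rps4x in TfrcAKO samples and at 3.61%, 2.79% and 3.84% in Tfrcfl/fl samples. Rps27l averaged 18.1% ± 1.66 of Rps27 in TfrcAKO samples and 14.4% ± 0.786 in Tfrcfl/fl samples (SD, n = 3 each). Rpl36al averaged 43.3% of Rpl36a in TfrcAKO samples and 38.0% in Tfrcfl/fl samples. For these 3 pairs the exact two-sided permutation p was 0.1, the smallest that 3 against 3 can give, and 0.167 after Benjamini-Hochberg adjustment over the 5 pairs tested. Rpl22l1 averaged 140% of Rpl22 in TfrcAKO samples and 148% in Tfrcfl/fl samples (exact permutation p = 0.3), and Rpl7l1 averaged 10.7% of Rpl7 in TfrcAKO samples and 10.2% in Tfrcfl/fl samples (exact permutation p = 0.6).

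**Figure D4:**
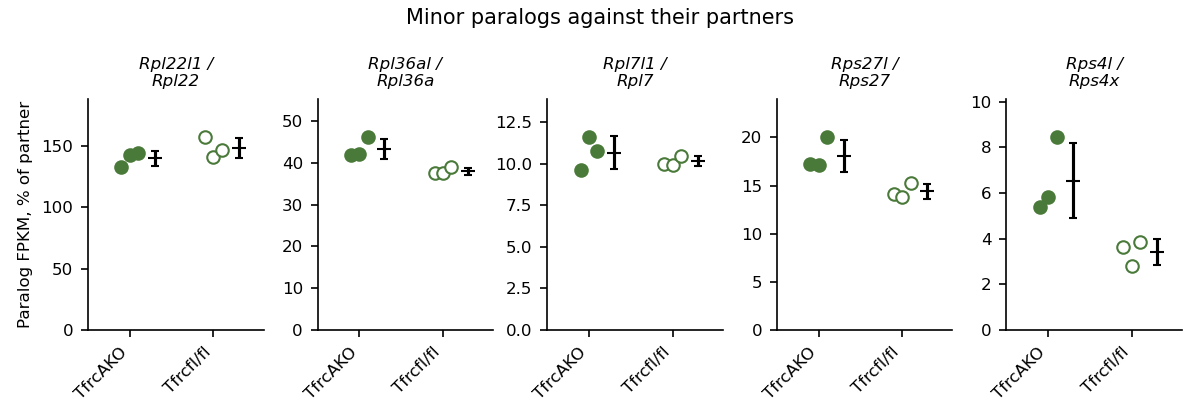
FPKM of 5 minor paralogs as a percent of their partner gene in each sample, with TfrcAKO filled and left, Tfrcfl/fl open and right, and the mean ± SD beside the points. The groups are apart for Rps4l, Rps27l and Rpl36al and overlap for Rpl22l1 and Rpl7l1.

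When every sample was scaled to the geometric mean of its core genes, a choice made after seeing the data, Rps4l was higher by 0.90 (adjusted p = 0.00695, limma) and Rps27l by 0.38 (adjusted p = 0.0224), and no member was called lower. This scaling centres the core genes near 0 by construction, so the lack of lower calls among them was largely fixed in advance. A gene with unchanged FPKM comes out higher on this scale. Rps27l was at 0.03 before scaling, so its call mostly reflects the fall of the core genes. The call of Rps27l was lost without TfrcAKO replicate 2 (adjusted p = 0.0591) and without any 1 of the Tfrcfl/fl samples (adjusted p between 0.0851 and 0.106), while that of Rps4l was kept in all 6. On that scale 34.2% of all genes were called higher and 9.37% lower.

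Other parts of the ribosome and its translation machinery differed more among themselves. Calls in the lists that follow stand beside 21.6% lower and 21.9% higher over all 14383 genes tested. Fau, which encodes a small subunit protein fused to a ubiquitin-like domain, fell by 0.51 (adjusted p = 0.0338, limma). It was at 401.5, 403.8 and 292.5 FPKM in TfrcAKO samples and at 515.6, 553.3 and 484.5 FPKM in Tfrcfl/fl samples. Rack1, the scaffold on the head of the small subunit, listed in the table as Gnb2l1, fell by 0.48 (adjusted p = 0.0287).

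Among 16 other mRNAs known for a TOP motif, 5 fell (31.2%), none rose and all 16 were below 0, with a median of -0.24. The calls of Tpt1 and of Fau were lost without any 1 of the Tfrcfl/fl samples, and that of Tpt1 also without TfrcAKO replicate 2. Tpt1, a growth-related protein, was at 1016, 957.2 and 693.1 FPKM in TfrcAKO samples and at 1326, 1330.0 and 1284 FPKM in Tfrcfl/fl samples, and fell by 0.58 (adjusted p = 0.0307, limma). Vim, the intermediate filament of mesenchymal cells and macrophages, fell by 0.55, Npm1, a nucleolar chaperone, by 0.41, and Eif4b, a helper of the initiation helicase, by 0.37. Of 14 elongation and recycling factors 2 fell and 2 rose (14.3% each). The 2 that rose were Pelo and Hbs1l, which rescue stalled ribosomes, higher by 0.44 and 0.37.

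Initiation factors moved in both directions, with 8 of 35 lower (22.9%) and 4 higher (11.4%). The helicase Eif4a1 was at 152.0, 148.1 and 123.6 FPKM in TfrcAKO samples and at 198.0, 216.7 and 203.4 FPKM in Tfrcfl/fl samples, and fell by 0.55 (adjusted p = 0.00931, limma). Its paralog Eif4a2 was at 144.3, 137.6 and 156.7 FPKM in TfrcAKO samples and at 74.4, 80.3 and 76.1 FPKM in Tfrcfl/fl samples, and rose by 0.92 (adjusted p = 0.00343). Neither gene's groups overlapped.

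Of 47 ribosome assembly factors 9 fell (19.1%) and 1 rose (2.13%), with a median of -0.16, beside 21.6% and 21.9% of all genes tested. Fbl, the methyltransferase of ribosomal RNA, was at 30.2, 28.2 and 25.4 FPKM in TfrcAKO samples and at 38.1, 40.6 and 41.9 FPKM in Tfrcfl/fl samples, and fell by 0.52 (adjusted p = 0.00599, limma). Utp15, of the small subunit processome, fell by 0.49. Of 16 genes of RNA polymerase I and its factors 1 fell and 1 rose (6.25% each), the latter the initiation factor Rrn3, by 0.40. Of 7 genes listed for iron-dependent steps on ribosomes or translation factors, 2 fell (28.6%) and none rose. Riox1 (2410016O06Rik in the table), a hydroxylase of a ribosomal protein, fell by 0.72. Dph2, of the diphthamide pathway that modifies elongation factor Eef2, fell by 0.41.

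Of 20 genes of mTORC1 and translational control 9 rose and 4 fell. Eif4ebp1, the repressor of cap-dependent translation, was at 194.5, 207.6 and 290.5 FPKM in TfrcAKO samples and at 105.1, 84.6 and 85.2 FPKM in Tfrcfl/fl samples, and rose by 1.31 (adjusted p = 0.00411, limma). Sesn2, an inhibitor of mTORC1 induced by stress, rose by 1.06 and Sesn1 fell by 0.65. Of 8 genes of the Myc family and its partners 3 fell (37.5%) and 1 rose (12.5%). Their log2 fold changes ran from -0.78 to 1.46, so the largest change was a rise. Myc, a known activator of ribosome production, was at 6.63, 6.23 and 5.004 FPKM in TfrcAKO samples and at 9.74, 11.1 and 10.8 FPKM in Tfrcfl/fl samples, and fell by 0.78 (adjusted p = 0.00477). Of 10 genes of the p53 axis 5 rose and 3 fell, with Ccng1 higher by 1.10 and Mdm2 lower by 0.66.

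Mitochondrial ribosomal proteins, which build the separate ribosome of that organelle, moved the other way. Of 76 tested 34 were called higher (44.7%) and 1 lower (1.32%), with a median log2 fold change of 0.22. Over all genes tested 21.9% were called higher and 21.6% lower, with a median of -0.03. Their summed level was 1742, 1772 and 1871 FPKM in TfrcAKO samples and 1553, 1515 and 1474 FPKM in Tfrcfl/fl samples, without overlap. The difference between both families was not tested.

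**Figure D5:**
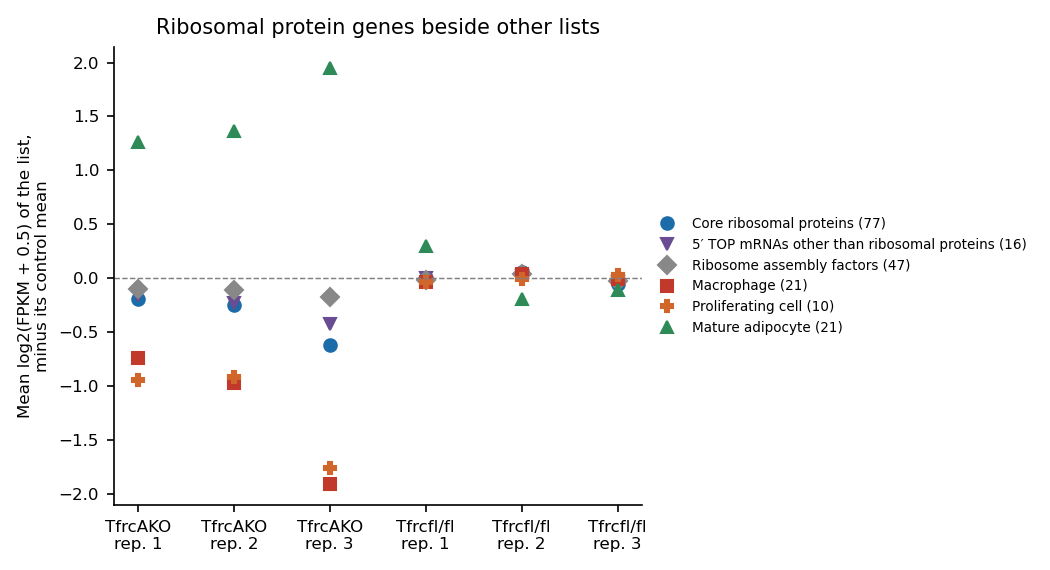
Mean log2(FPKM + 0.5) of each gene list in each sample, minus the mean of the list over the Tfrcfl/fl samples. Core ribosomal proteins, other TOP mRNAs and assembly factors lie below 0 in the TfrcAKO samples, macrophage and proliferating cell markers lie further below and mature adipocyte markers above, each farthest from 0 in TfrcAKO replicate 3.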

How the data were processed

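The deposited values are FPKM per gene, per the file headers, in 1 table with 1 column for each of 6 samples. The gene length in bases, also deposited, was used as it stands. Per the submitters' processing notes CASAVA, FastQC, STAR 2.5, HTSeq 0.6.1 and build mm10 were used; the strand setting, the annotation release and the treatment of reads with several matches were not found in those notes. In every sample FPKM times gene length (kb) added up to 1000000, and 100% of values above 0 were whole multiples of 1 read within 0.01, which gave the depths. A count of 3 on a gene of 2 kb corresponds to 0.0489 to 0.0594 FPKM, which covers counting error only.

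Genes with at least 0.5 FPKM in 3 samples (14383) were fitted as log2(FPKM + 0.5) in limma 3.58.1 under R 4.3.3 and statmod 1.5.0. Moderation used a trend and was robust, tests were two-sided, and p-values were adjusted by Benjamini-Hochberg across every gene tested. A called gene has an adjusted p under 0.05. Fold changes on this scale understate those of low genes. Count tests were not the main result, as the values are FPKM; the recovered reads went into limma-voom only as an alternative. The fit was run on simulated reads with a set spread and few changed genes, so that run does not show how it performs on these data. Replicates differed by more than counting noise. The main fit did not pair the samples by replicate number. The members, lists, motifs and named genes were chosen with earlier results of these data known. Genes named are Tfrc, all paralogs and their partners, Fau, Rack1, the core genes with the highest and lowest fold changes and levels per subunit, and up to 4 called genes per list; Rpl5, Rpl11, Rplp0, Rpl35, Rps10, Rpl38, Rps16 and Rpl23, and several list genes beyond that number, were named after their values were seen. One gene that the rule names is not reported here. Promoters were taken from RefSeq (GRCm38.p6). Alternatives were pseudocounts of 0.1 and 1, a filter at 1 FPKM, no filter, a replicate block, each sample left out, 2 other scalings, limma-voom and 1 pair of samples left out; scaling to the core genes was added after seeing the data. Tables and figures were made with Python 3.11.15, numpy 2.4.6, pandas 2.3.3 and matplotlib 3.10.9.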

Additional observations from a re-analysis of the deposited data

How the results depend on the processing

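The number of core genes called lower, 19 with 11 in the large and 8 in the small subunit, was 3 (2 and 1) with no filter, 5 (3 and 2) with the replicate block, 44 (24 and 20) under median-of-ratios scaling and 29 under limma-voom, with 14 in the small subunit. With each sample left out in turn it was between 0 and 49 (large 0 to 29, small 0 to 20), and without TfrcAKO replicate 3 and Tfrcfl/fl replicate 2 together 14 small subunit genes were called. All 19 were also called under limma-voom, under median-of-ratios scaling and without TfrcAKO replicate 3. Leaving out a sample leaves fewer samples in the fit; the cause of the other differences was not tested. The median log2 fold change of the core genes was -0.20 (small subunit -0.22) without that pair of samples; with each sample left out it was -0.45 to -0.23, and -0.51 to -0.26 in the small subunit.

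Paralogs called lower, 2 at first, were 1 with no filter, 1 with the replicate block, 1 under limma-voom, 1 without the pair and 0 to 3 with each sample left out. Of the other lists' genes 34 were called lower and 22 higher; the lower ones were 21 with no filter, 13 with the replicate block, 19 without the pair and 6 to 35 with each sample left out, and the higher ones 12 to 23 with each sample left out. Over all genes the calls were 3371 to 5958, with 1324 to 3064 lower and 1897 to 3063 higher, with each sample left out. Relative to the core genes, 1 to 4 members were higher and 0 to 3 lower with each sample left out.

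Small values changed sign. Rps27l was at -0.031 without TfrcAKO replicate 1, -0.0097 without TfrcAKO replicate 2 and up to 0.14 with each sample left out, and at 0.16 without the pair. Rpl23a was at -0.033 without TfrcAKO replicate 2, -0.010 without TfrcAKO replicate 3, -0.033 without Tfrcfl/fl replicate 2 and up to 0.055 with each sample left out, -0.0054 with the members left out of the library total, -0.0032 under limma-voom and -0.047 without the pair. Rpl41 was at 0.023 without the pair and between -0.11 and -0.0049 with each sample left out. Tfrc was between -0.62 and -0.42 with each sample left out. Same-numbered samples had correlations of -0.237, 0.0305 and -0.179 in their deviations from the group means. Such deviations sum to 0 within a group, so these values cannot settle whether the replicate numbers pair the samples. Why calls were lost under the block was not tested.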
